A study of Caenorhabditis elegans with 6 samples.

Results

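The genes described here are 32 synaptic and neurotransmitter genes of Caenorhabditis elegans, grouped by what their proteins do at the synapse: vesicle release, vesicle recycling, axonal transport, transmitter synthesis and loading, and the transcription factors that give neurons their transmitter identity. They were chosen by gene name, with earlier results of these data known. All 32 had a probe set annotated to that gene alone, 64 probe sets in all, of 22625 on the array, of which 46, for 27 genes, were bright enough to be tested (above the 40th percentile of their own array on at least 3 of 6 arrays). The 3 arrays of whole atfs-1(et18) worms and the 3 arrays of whole wild-type (N2) worms each came from separate biological replicates, bleach-synchronised, fed E. coli OP50 on plates and collected at L4, the last larval stage. ATFS-1 is a transcription factor that turns on genes of mitochondrial protein folding when import into mitochondria falters. The allele et18 carries a point mutation, is known from earlier work as a gain-of-function allele and is present in every cell of the animal. The comparison asks how transcript levels differ when ATFS-1 carries this change. Values are MAS5 signals, a linear brightness per probe set, and they can be compared between arrays for 1 probe set but not between probe sets.

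At a chemical synapse, kinesin motors bring vesicle precursors along the axon, transporters in the vesicle membrane load them with transmitter, and SNARE proteins fuse them with the plasma membrane when calcium enters. Clathrin adaptors and lipid phosphatases then retrieve the membrane. In the worm much of this machinery was found through uncoordinated (unc) mutants and mutants resistant to inhibitors of cholinesterase (ric). In RNA of a whole animal, fewer cells of a type and less RNA per cell cannot be told apart.

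No synaptic or neurotransmitter gene passed the threshold in either direction. Of the 27 genes tested, 0 were called higher and 0 lower (limma, Benjamini-Hochberg adjusted p under 0.05 over 13792 probe sets), while among all 10613 genes tested 4.06% were called, 2.69% higher and 1.37% lower. None of their 46 tested probe sets was called either, against 3.93% of all probe sets. At an unadjusted p under 0.05 there were 4 of the 27 genes, against 17.4% of all genes. These were rab-3, ric-4, unc-13 and snt-1, all with lower signals in atfs-1(et18) worms, and the smallest adjusted p of any of the 27 was 0.138, for rab-3. Signals of the 3 atfs-1(et18) arrays did not overlap those of the 3 wild-type arrays for 7 of the 27 genes, 3 higher and 4 lower, where 12.9% of all genes were higher without overlap and 10.4% were lower, 23.4% in all. The share among synaptic genes thus lay near that of all genes. The median log2 change was -0.18 over the 27 genes and 0.005 over all genes, and 19 of the 27 changes were below 0, against 49.4% of all genes. With arrays weighted by their residual spread, rab-3 and unc-13 were called lower, and mec-12 was called lower without wild-type replicate 1 (adjusted p over the alternatives 0.0469 to 0.437 for rab-3, 0.0264 to 0.6 for unc-13 and 0.0471 to 0.742 for mec-12). Both settings called more of all 13792 probe sets as well. The number called was 1637 with array weights and 871 without wild-type replicate 1, against 542 in the main fit.

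The size of change that the arrays leave room for can be read from the 95% intervals. For 18 of the 27 genes the interval lay within 2-fold either way, against 65.8% of all genes. None of the 27 had a fitted change of 2-fold or more. Among the 22 genes that were above the 40th percentile of every array, the intervals ran from no lower than -1.28 to no higher than 0.89 on the log2 scale. A missed threshold does not show equal levels, and for the other 9 genes, among them unc-86 and unc-47, the interval reached past 2-fold.

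**Figure D1:**
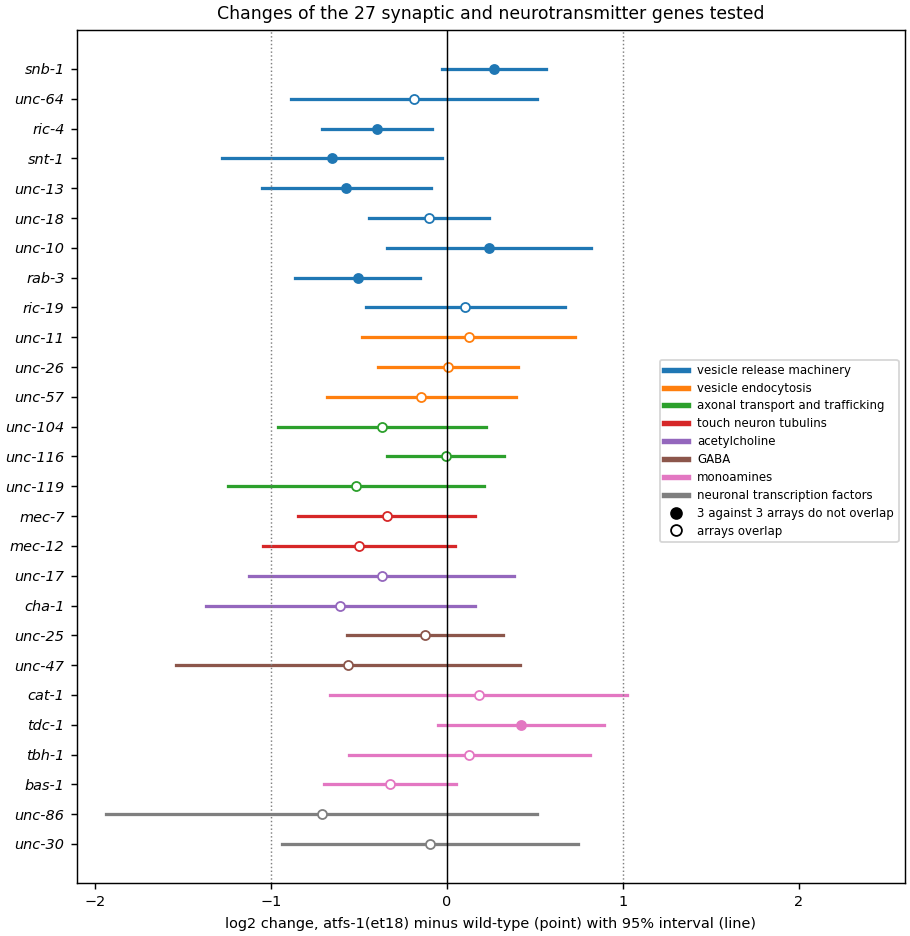
Log2 change, atfs-1(et18) minus wild-type, of the 27 synaptic and neurotransmitter genes tested (points) with 95% intervals (lines), coloured by role; dotted lines mark 2-fold either way, and filled points are genes whose 3 against 3 arrays do not overlap. Most points lie left of 0 with a median of -0.18, and the interval of unc-86 is the widest shown.

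Vesicle fusion depends on a SNARE complex of synaptobrevin, syntaxin and SNAP-25, and none of their genes passed the threshold. For snb-1, which encodes the vesicle protein synaptobrevin, signals were 4272, 3726 and 4099 in atfs-1(et18) worms, against 3546, 3240 and 3269 in wild-type worms. Every mutant array was the brighter, and the second probe set gave 2542, 2558 and 2767 in the mutant against 2370, 1703 and 1848 in wild type. The log2 changes of the pair were 0.27 ± 0.13 and 0.42 ± 0.16 (SE), neither past the threshold (limma adjusted p = 0.342 and 0.222). For ric-4, the SNAP-25 gene, signals were 814, 790 and 836 in atfs-1(et18) worms and 1072, 1042 and 1098 in wild-type worms, with means of 813 ± 23.2 and 1070 ± 28.1 (SD, n = 3 each). On its second probe set the mutant arrays read 259, 403 and 320, against 475, 435 and 424 in wild type. So both ric-4 probe sets were dimmer on all mutant arrays, with log2 changes of -0.40 ± 0.14 and -0.46 ± 0.20 (adjusted p = 0.184 and 0.289). For unc-64, the syntaxin gene, signals of 567, 586 and 640 in atfs-1(et18) worms lay inside the wild-type spread of 400, 1007 and 775 (log2 change -0.18 ± 0.31, adjusted p = 0.822), and the change was 0.10 without wild-type replicate 2.

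Calcium sensing and priming come next. The synaptotagmin gene snt-1, the calcium sensor of release, had signals of 97.9, 125 and 182 in atfs-1(et18) worms and 209, 225 and 184 in wild-type worms, so that the groups came within a few units of each other without crossing. Its second probe set read 88.1, 110 and 92.5 in the mutant against 143, 179 and 126 in wild type. The changes of -0.65 ± 0.27 and -0.62 ± 0.26 were alike on both, and that of the first was the furthest from 0 among genes bright on every array (adjusted p = 0.273 and 0.281). The gene unc-13 encodes the priming factor that opens syntaxin. On its first probe set, atfs-1(et18) signals of 316, 482 and 349 lay below wild-type signals of 489, 553 and 648 (-0.57 ± 0.21, adjusted p = 0.209). This was not seen on its other 2 probe sets, where the genotypes overlapped and the changes were -0.28 ± 0.27 and -0.19 ± 0.19. The syntaxin partner gene unc-18 overlapped between genotypes on both of its probe sets, at 633, 585 and 682 in the mutant and 654, 693 and 687 in wild type on the brighter of them (-0.10 ± 0.15, adjusted p = 0.801).

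The small GTPase RAB-3 marks synaptic vesicles, and its gene came closest to the threshold. Signals of rab-3 were 505, 457 and 513 in atfs-1(et18) worms, against 651, 678 and 770 in wild-type worms, means of 492 ± 30.5 and 700 ± 62.3 (SD, n = 3 each). The second probe set gave 242, 249 and 264 in the mutant and 350, 304 and 314 in wild type. All mutant arrays were dimmer than all wild-type arrays on both, by log2 changes of -0.51 ± 0.16 and -0.35 ± 0.17 (adjusted p = 0.138 and 0.342). The genes of the RAB-3 partners, unc-10 and aex-3, come next, and then ric-19. The active zone scaffold gene unc-10, encoding the worm RIM, read 117, 115 and 140 in atfs-1(et18) worms and 107, 94.8 and 113 in wild-type worms, higher without overlap by 0.24 ± 0.25 (adjusted p = 0.703), and its other 2 probe sets were below the 40th percentile of all 6 arrays. For aex-3, the exchange factor of RAB-3, neither probe set was bright enough to test. The brighter aex-3 readings, 61.5, 40.2 and 57.6 in the mutant and 72.1, 88.5 and 89.8 in wild type, were above the 40th percentile on 0 mutant and 2 wild-type arrays, and all mutant readings were the lower. The gene ric-19, whose protein acts in dense-core vesicle formation, overlapped between genotypes, at 259, 338 and 276 in the mutant and 226, 228 and 377 in wild type (0.11 ± 0.25, adjusted p = 0.879).

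**Figure D2:**
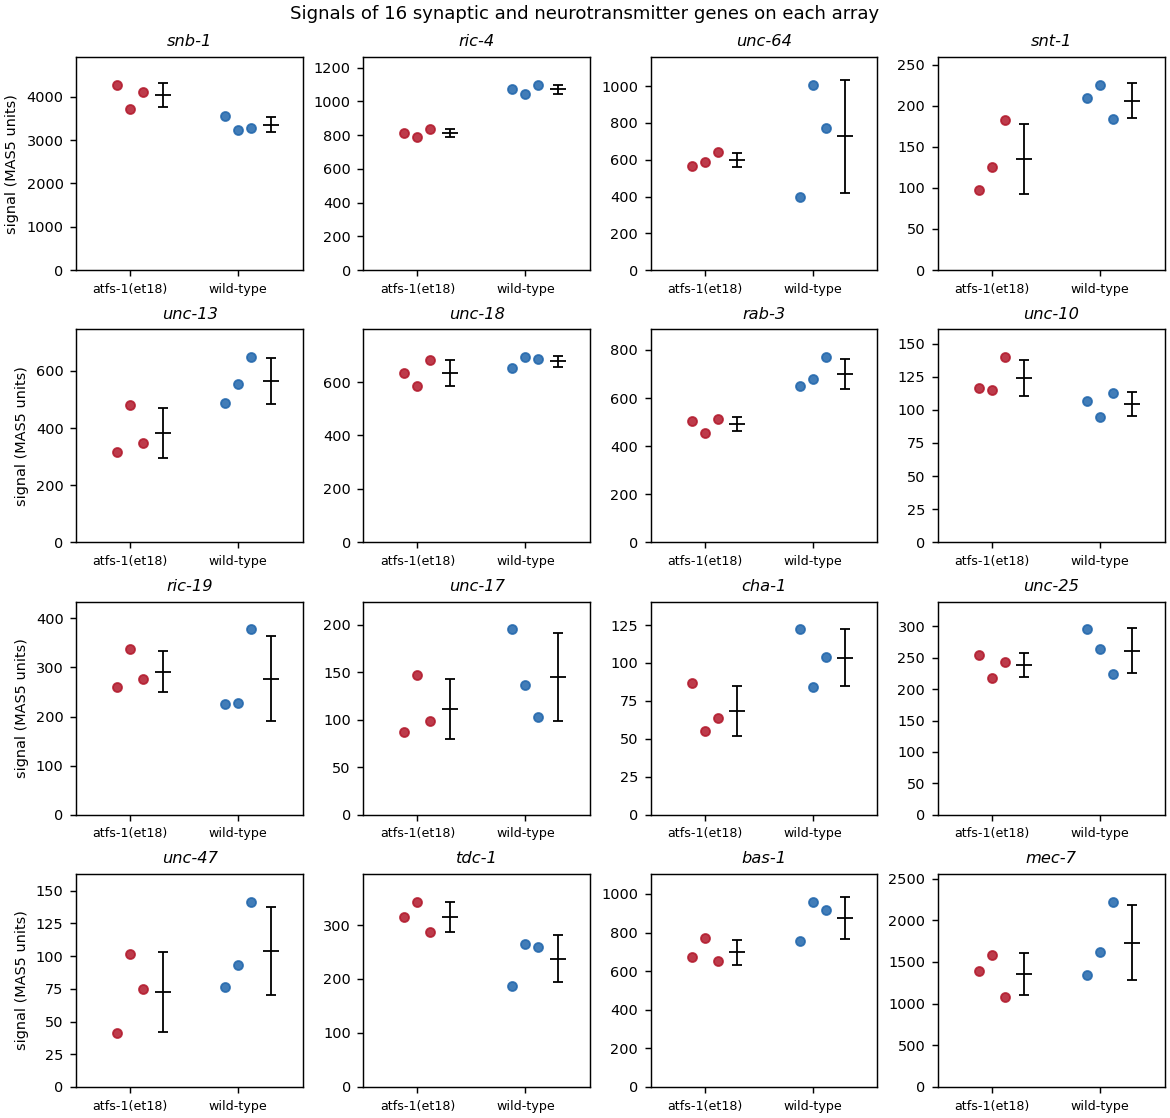
MAS5 signal (vertical axes from 0, each gene on its own scale) of 16 genes on the 3 atfs-1(et18) arrays (red) and the 3 wild-type arrays (blue), with mean and SD in black, for the probe set that stands for the gene. The arrays separate without overlap for snb-1, unc-10 and tdc-1 (higher in atfs-1(et18)) and for ric-4, snt-1, unc-13 and rab-3 (lower), and they overlap for the other 9 genes. All genes without overlap among the 27 tested are drawn, so their share is larger here than among the 27.

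No gene of vesicle recycling passed the threshold. The synaptojanin gene unc-26 had 241, 249 and 243 in atfs-1(et18) worms and 237, 251 and 242 in wild-type worms, which overlapped (0.005 ± 0.17, adjusted p = 0.991). Its second tested probe set gave 112, 108 and 131 in the mutant against 83.3, 86.4 and 120 in wild type, also overlapping (0.29 ± 0.28, adjusted p = 0.67). The endophilin gene unc-57 read 380, 430 and 398 in the mutant against 600, 323 and 453 in wild type (-0.15 ± 0.23, adjusted p = 0.818). Without wild-type replicate 1 the unc-57 change was 0.07. The AP180 clathrin adaptor gene unc-11 has 10 probe sets, 7 of them tested. Its brightest gave 485, 387 and 754 in atfs-1(et18) worms and 578, 391 and 484 in wild-type worms (0.12 ± 0.27, adjusted p = 0.866). The other 6 had changes from -0.44 to 1.05, the latter resting on a single wild-type reading of 7.09 (replicate 3). Another probe set, listed under 2 gene entries both called unc-26, was below the 40th percentile throughout and is not counted here.

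Transport motors carry vesicles from the cell body. The kinesin-3 gene unc-104, whose motor moves synaptic vesicle precursors, had signals of 258, 167 and 273 in atfs-1(et18) worms and 240, 283 and 371 in wild-type worms (-0.37 ± 0.26, adjusted p = 0.534). Its second probe set had the opposite sign, 0.10 ± 0.23. The kinesin-1 heavy chain gene unc-116, which many cell types use, read 3623, 3488 and 3768 in the mutant and 3470, 4285 and 3256 in wild type (-0.008 ± 0.15, adjusted p = 0.987). On its second probe set the mutant arrays read 785, 787 and 820, against 694, 715 and 696 in wild type. That was higher without overlap, by 0.18 ± 0.14 (adjusted p = 0.572). For unc-119, a lipid-binding trafficking factor often used as a pan-neuronal marker, signals were 75.7, 89.2 and 129 in atfs-1(et18) worms against 151, 165 and 103 in wild-type worms. These overlapped, and the change of -0.52 ± 0.32 had an interval from -1.25 to 0.21 (adjusted p = 0.467).

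The touch receptor neurons build special microtubules from the beta-tubulin MEC-7 and the alpha-tubulin MEC-12. Signals of mec-7 were 1396, 1580 and 1086 in atfs-1(et18) worms and 1350, 1624 and 2223 in wild-type worms, and those of mec-12 were 412, 353 and 321 in the mutant against 360, 616 and 596 in wild type. Both overlapped because wild-type replicate 1 read as low as the mutant arrays. The changes were -0.34 ± 0.22 (adjusted p = 0.488) and -0.50 ± 0.24 (adjusted p = 0.334), and without wild-type replicate 1 that of mec-12 was -0.75 (adjusted p = 0.0471). Leaving out replicate 3 of both genotypes brought the mec-7 change to 0.004.

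Acetylcholine is the main excitatory transmitter of worm motor neurons. Its synthetic enzyme gene cha-1 and its vesicular transporter gene unc-17 share a locus and a first exon, with unc-17 lying inside cha-1. Signals of cha-1 were 86.6, 54.9 and 63.9 in atfs-1(et18) worms and 122, 84.3 and 103.8 in wild-type worms, and only 1 mutant array was above its 40th percentile against 3 wild-type arrays. The genotypes overlapped by 1 pair of arrays (-0.61 ± 0.34, adjusted p = 0.411). For unc-17 the readings of 87.6, 147 and 98.6 in the mutant lay within and below 195, 137 and 103 in wild type (-0.37 ± 0.33, adjusted p = 0.643). A second tested probe set of unc-17 had a change of -0.94 ± 0.80, for which the mutant reading of 9.44 in replicate 3 stands far from 79.8 and 73.8. The names of these cha-1 and unc-17 probe sets end in x_at, a flag for possible binding of transcripts besides the intended one. The unc-13 probe set that separated the genotypes has this ending too, as do another of unc-13, the second of tdc-1 and 1 of mec-7. All tested unc-11 probe sets but the brightest share it, so the same limit applies there. Of the 27 genes tested, 13 are represented by a probe set without a plain _at ending.

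GABA is the inhibitory transmitter of the body wall. The glutamic acid decarboxylase gene unc-25 read 254, 218 and 244 in atfs-1(et18) worms against 295, 264 and 224 in wild-type worms (-0.13 ± 0.19, adjusted p = 0.809). For unc-47, the vesicular GABA transporter gene, signals were 41.2, 102 and 75.1 in the mutant and 76.7, 93.4 and 142 in wild type, above the 40th percentile on 2 arrays of each genotype (-0.56 ± 0.43, adjusted p = 0.572). Both GABA genes overlapped between genotypes. The single glutamate gene, eat-4, encodes the vesicular glutamate transporter and was too dim to test. On its brighter probe set it read 35.2, 19.4 and 30.3 in atfs-1(et18) worms and 46.8, 48.7 and 66.7 in wild-type worms, of which only the last was above the 40th percentile of its array, so no fold is given.

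Monoamine genes act in few neurons, and 4 of the 6 could be tested. The tyrosine decarboxylase gene tdc-1, which makes tyramine in a few neurons and in gonadal sheath cells, was the only one of them whose arrays did not overlap. It had 314, 343 and 288 in atfs-1(et18) worms against 187, 265 and 260 in wild-type worms, and on a second probe set 168, 97.9 and 127 in the mutant against 70, 95.7 and 69 in wild type. All mutant arrays were higher on both, by 0.42 ± 0.21 and 0.73 ± 0.32 (adjusted p = 0.346 and 0.290). The next enzyme of that route, tyramine beta-hydroxylase, which makes octopamine, showed no such separation: tbh-1 read 97.7, 120 and 82.5 in the mutant and 86.9, 107 and 79.3 in wild type (0.13 ± 0.30, adjusted p = 0.879). The aromatic amino acid decarboxylase gene bas-1, needed for serotonin and dopamine, had signals of 673, 771 and 651 in atfs-1(et18) worms and 754, 959 and 916 in wild-type worms (-0.32 ± 0.16, adjusted p = 0.362), overlapping by 1 pair of arrays. The vesicular monoamine transporter gene cat-1 had 78, 70.2 and 74 in the mutant against 55.4, 93.5 and 53.9 in wild type (0.18 ± 0.37, adjusted p = 0.859). It was above the 40th percentile on 3 mutant arrays and 1 wild-type array. Tyrosine hydroxylase (cat-2) and tryptophan hydroxylase (tph-1), the first enzymes of dopamine and serotonin synthesis, were not tested. For cat-2 no array of either genotype was above the 40th percentile. For tph-1, 2 mutant arrays and 0 wild-type arrays were above the 40th percentile, with 45.3, 72.8 and 74.9 in atfs-1(et18) worms against 54.7, 26.1 and 61.7 in wild-type worms.

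Transcription factors of neuronal identity were dim as well. The POU homeobox gene unc-86, a selector of touch and serotonergic neurons, read 83.7, 110 and 26.9 in atfs-1(et18) worms and 118, 122 and 75.7 in wild-type worms. Its change of -0.71 ± 0.54 was the furthest from 0 of all 27 genes, but the interval ran from -1.94 to 0.51 (adjusted p = 0.568) and without mutant replicate 3 the change was -0.10. The GABA neuron homeobox gene unc-30 had 76.1, 48.6 and 85.7 in the mutant and 83, 68.4 and 68.5 in wild type, which overlapped, and a change of -0.10 ± 0.37 (adjusted p = 0.927). For unc-3, the COE factor of cholinergic motor neurons, the brighter probe set gave 47.2, 54.7 and 33.5 in the mutant and 73.2, 102 and 58.2 in wild type. This was lower on every mutant array, yet only 1 array of the 6 was above its 40th percentile, so unc-3 was not tested.

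Probe sets of 1 gene give a check on single readings, although they share the same RNA and arrays and so are not independent. Among the 13 genes with several tested probe sets, 10 had all probe sets on the same side of 0, against 71.8% of all 2135 such genes on the array, and 3 had both signs (unc-11, unc-104 and unc-116). For 5 of the 13 every tested probe set separated the genotypes without overlap, namely snb-1, ric-4, snt-1, rab-3 and tdc-1, against 9.79% of all such genes.

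**Figure D3:**
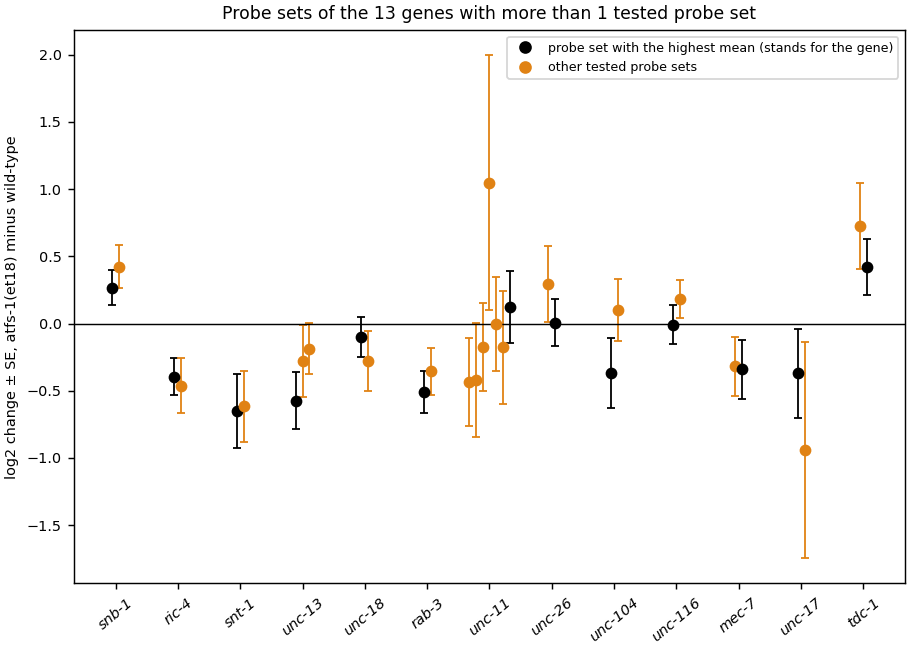
Log2 change ± SE, atfs-1(et18) minus wild-type, of every tested probe set of the 13 genes that have more than 1; black points stand for the gene in all counts, orange points are its other probe sets. The paired points of ric-4, snt-1, rab-3, mec-7 and snb-1 lie close together, and those of unc-11 spread from -0.44 to 1.05.

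The wider synapse was described with 9 further lists, 279 genes of receptors, uptake, release control, transport, cilia and neuronal transcription factors, of which 158 could be tested. Of these, 1 gene, madd-4, was called higher and 0 were called lower (limma, against 2.69% and 1.37% of all genes). At an unadjusted p under 0.05 there were 17 of the 158, a smaller share than the 17.4% of all genes. Arrays did not overlap for 5 of the 158 that were higher and 22 that were lower, against 12.9% and 10.4% of all genes. The median log2 change was -0.17, and 70.3% of the changes were below 0. The gene madd-4 encodes punctin, a secreted organiser that positions receptors at neuromuscular junctions. It had 980, 906 and 1003 in atfs-1(et18) worms against 573, 467 and 334 in wild-type worms, a log2 change of 1.11 ± 0.21 (adjusted p = 0.0244). This call ended in 8 of 19 alternatives, among them leaving out any mutant array or wild-type replicate 2 (adjusted p over the alternatives 0.00263 to 0.160).

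No receptor gene passed the threshold. Among 22 acetylcholine receptor genes and their assembly factors, 19 had a change below 0 (median -0.28), with lev-8 at -0.80 ± 0.35 and acr-16 at -0.56 ± 0.27, both nicotinic subunits (adjusted p = 0.289 and 0.335). Of 13 GABA and glutamate receptor genes, 9 were below 0 (median -0.34). Here the GABA-B subunit gene gbb-2 read 71.8, 80.7 and 65.6 in atfs-1(et18) worms and 167, 144 and 132 in wild-type worms (-1.02 ± 0.27, adjusted p = 0.0868). Only 1 of these mutant readings was above the 40th percentile of its array, against 3 in wild type. Lower calls came in 2 of 19 alternatives each for gbb-2 (adjusted p 0.0289 to 0.317) and lev-8 (0.0238 to 0.642). The chloride channel gene glc-4 read 169, 106 and 109 in the mutant against 194, 267 and 268 in wild type (-0.95 ± 0.27, adjusted p = 0.106). Of 6 monoamine receptor genes, 4 were below 0 (median -0.40), and the dopamine receptor gene dop-4 had -1.07 ± 0.41 (adjusted p = 0.233) with mutant signals of 64, 72.7 and 57.7, of which 1 was above the 40th percentile, against wild-type signals of 73, 169 and 202, and was called lower in 3 of 19 alternatives (adjusted p 0.0162 to 0.648). Its relative dop-5 had -0.36 ± 0.22.

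Uptake and breakdown genes had a median of -0.13 over 11 genes, and those with the smallest p were the GABA transporter gene snf-11 (-0.67 ± 0.22, adjusted p = 0.163) and the glutamate transporter gene glt-1 (-0.64 ± 0.28, adjusted p = 0.290). Among 19 genes of G-protein control of release, 16 were below 0 (median -0.17). The calcium/calmodulin kinase gene unc-43 had -0.38 ± 0.14 and the protein kinase C gene pkc-1 had 0.39 ± 0.16 (adjusted p = 0.212 and 0.263), and unc-43 was called lower with array weights. The 33 other presynaptic genes had a median of -0.26, with 24 below 0. Nearer 0 were 30 genes of axonal transport and cytoskeleton (median -0.04, tbb-2 at -0.29 ± 0.14 and the tubulin acetyltransferase gene mec-17 at -0.64 ± 0.34, called lower in 2 of 19 alternatives with an adjusted p of 0.0019 to 0.821) and 18 transcription factor genes (median -0.06, ast-1 at -0.65 ± 0.32 and daf-19 at -0.27 ± 0.22). Of 36 genes of sensory cilia, 22 stayed below the 40th percentile of all arrays and 7 were tested, including the rootletin gene che-10 (-0.64 ± 0.21, called lower with array weights) and the TRPV channel gene ocr-2 (0.88 ± 0.33).

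Signals of tissue markers differed between arrays, and these values stand beside the synaptic medians. Averaged over the 27 genes, each array's deviation from the mean of all 6 was -0.14, -0.08 and -0.10 in atfs-1(et18) worms and 0.05, 0.14 and 0.12 in wild-type worms. Body wall muscle markers had all 15 changes below 0 (median -0.25, 0 called), with summed signals of 88087 to 104834 in the mutant and 109052 to 122494 in wild type. Germline markers were on the other side, with 22 of 25 changes above 0 (median 0.24, 0 called) and summed signals of 16460 to 20983 in the mutant and 11980 to 23293 in wild type. Oocyte and early embryo markers had 18 of 21 above 0 (median 0.32) and sperm markers 18 of 22 below 0 (median -0.32), 0 called in either. Sums of the oocyte markers were 17144 to 20883 in the mutant and 13158 to 21102 in wild type, and those of the sperm markers 168191 to 208897 in the mutant and 212564 to 289421 in wild type. Such sums follow the brightest probe sets. By mean log2 deviation the sperm markers overlapped between genotypes, at -0.10, -0.39 and 0.18 in the mutant and 0.49, -0.009 and -0.17 in wild type. Wild-type replicate 1 stood with the mutant arrays in its germline and oocyte markers, but not in its muscle markers. The part of these differences in the synaptic values was not tested.

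Markers of other tissues moved less evenly. Pharyngeal markers had 8 of 11 changes below 0 with the lowest median of the marker lists, -0.66 (0 called), and they spread most within a genotype, with mean deviations of 0.23, -1.63 and 0.57 in atfs-1(et18) worms and 1.19, 0.12 and -0.48 in wild-type worms, and summed signals of 880 to 5156 in the mutant against 2308 to 9532 in wild type. Intestinal markers had 7 of 12 changes below 0 (sums 84881 to 123358 in the mutant and 95878 to 130577 in wild type). Hypodermal markers had 10 of 15 below 0 (sums 91104 to 107276 in the mutant and 95444 to 117668 in wild type), with grd-10 called lower, and glial markers 4 of 7 below 0 (sums 2742 to 3202 in the mutant and 2535 to 2757 in wild type), with delm-2 called higher. Both were named after their values were seen, and the calls ended in 1 of 20 alternatives for grd-10 (adjusted p 0.000999 to 0.0765) and in 6 of 19 for delm-2 (0.00401 to 0.145). For delm-2, 3 mutant arrays and 0 wild-type arrays were above the 40th percentile. It was therefore tested only through the arrays where it is high, and its change rests on dim wild-type readings. Mean deviations of the hypodermal markers did not overlap, at -0.10, -0.07 and -0.10 in the mutant and 0.23, 0.09 and -0.05 in wild type. No signal on any array was at 0, and every germline, muscle, intestinal and hypodermal marker with a probe set was above the 40th percentile on some array.

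**Figure D4:**
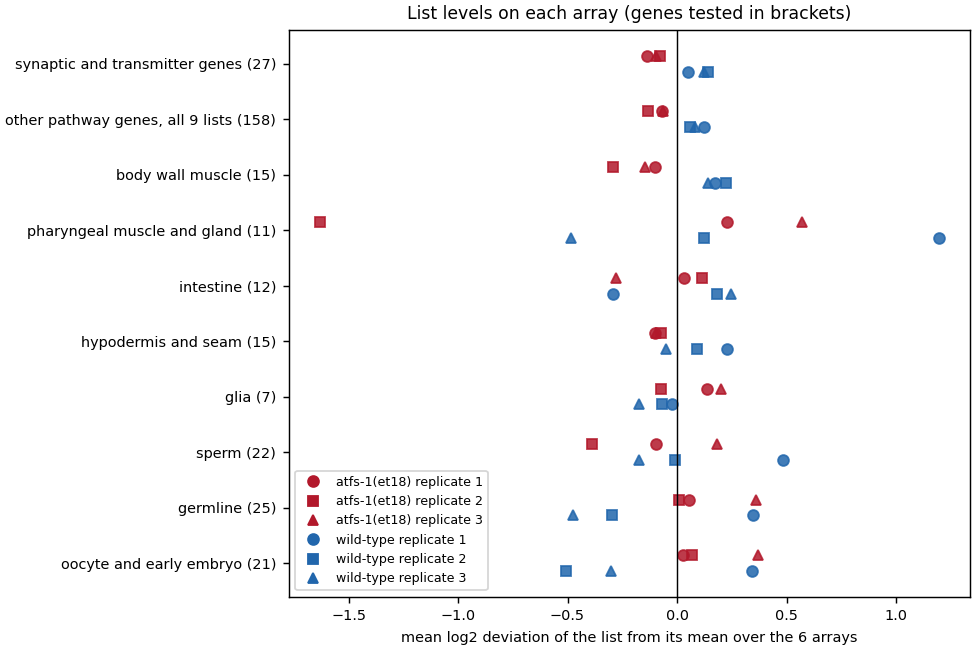
Mean log2 deviation of each gene list from its own mean over the 6 arrays (horizontal axis), for the 3 atfs-1(et18) arrays (red) and the 3 wild-type arrays (blue), with the number of genes tested in brackets. Synaptic genes lie between -0.14 and 0.14, with the mutant arrays left of the wild-type arrays. The same order holds for the other pathway genes and for the body wall muscle and hypodermal markers. Pharyngeal markers range from -1.63 to 1.19.

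The synaptic values were also taken without the arrays at the ends of these lists. Without wild-type replicate 1 and mutant replicate 2, the ends of the pharyngeal list, mec-12 and unc-13 were called lower and the median was -0.29, where the median of all genes was 0.09. More was called throughout in this setting, 1478 of all 13792 probe sets against 542 in the main fit. The changes of ric-19, unc-26, unc-57, unc-25, tbh-1 and unc-30 turned sign there. Replicate 3 of each genotype was at the ends of the germline list by mean deviation, 0.36 in the mutant and -0.48 in wild type. By summed signal wild-type replicate 1 was the highest, at 23293, and it stayed in. Without replicate 3 of both genotypes, 0 of the 27 genes were called and the median was -0.24, and the changes of unc-11 and mec-7 turned sign. Both settings were chosen after seeing the data.

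Arrays had been scaled alike, with a mean of 500.2 on each after 2% was trimmed at either end and medians between 111 and 137. Correlations of log2 signals lay between 0.937 and 0.973 within a genotype and between 0.895 and 0.941 across genotypes. The transcript of atfs-1 itself read 346, 355 and 289 in atfs-1(et18) worms and 207, 284 and 277 in wild-type worms (0.38 ± 0.20, adjusted p = 0.4), and as et18 is a point mutation this is no check of the labels. Precision is limited by there being 3 arrays of each genotype.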

How the data were processed

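RNA of whole worms was labelled with biotin and hybridised to Affymetrix arrays (labels' protocols). The authors deposited 1 linear intensity for each probe set and array, computed by MAS5 according to the submitters' processing notes; for the MAS5 version, target and detection calls the sources used here say nothing. Here log2 values were taken without offset. Of 22548 probe sets that are not controls, 13792 were tested, those above the 40th percentile of their own array on at least 3 of 6 arrays. Gene names came from the platform annotation (20766 probe sets with 1 symbol, 20701 matched to the gene table of assembly WBcel235). A gene is represented by its tested probe set with the highest mean.

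The difference between genotypes, mutant minus wild type, was fitted with limma 3.58.1 in R 4.3.3 (lmFit, eBayes with trend, two-sided, Benjamini-Hochberg over all probe sets tested). An exact test of 3 against 3 arrays cannot reach a two-sided p under 0.1. All 32 genes are named, with up to 4 called genes, or else the 2 smallest p, of each other list. The 32 genes and all lists were chosen with earlier results of these data known. Alternatives were 2 other scalings, 2 offsets, 2 filters, 2 variance priors, array weights, the replicate block, probe sets with a plain _at ending alone, gene means over probe sets, and arrays left out. The fit was tested on simulated data. No sequences or coordinates are given. Figures were drawn with matplotlib 3.10.9.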

Additional observations from a re-analysis of the deposited data

How the results depend on the processing

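Over 20 alternatives no synaptic or neurotransmitter gene was called higher, and the median of their log2 changes stayed below 0. Genes called lower numbered 0, except 2 with array weights, 1 without wild-type replicate 1 (0 to 1 over single arrays left out) and 2 without wild-type replicate 1 and atfs-1(et18) replicate 2. The median of -0.18 was -0.25 with no filter, -0.30 with array weights, -0.26 to -0.13 over single arrays left out and -0.29 without that pair. Calls over all probe sets, 542, were 1637 with array weights, 313 with plain _at names alone (8377 tested), 202 to 871 over single arrays left out, 1478 without that pair and 176 without replicate 3 of both genotypes. The replicate block gave 336 probe sets called, 0 of the 27 synaptic genes and 0 of the wider synaptic lists. Same-numbered arrays correlated at 0.171, 0.175 and -0.397 in their deviations from the genotype means, so the numbers were not taken to pair samples. Of the wider lists 1 gene, madd-4, was called, against 11 with array weights and 11 without the pair above. The count was 0 with plain _at names, where madd-4 had no tested probe set. It was also 0 with gene means over probe sets or without replicate 3 of both genotypes, and 0 to 2 over single arrays left out. The cause was not tested.

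Signs turned under some alternative for 11 of 27 genes. With quantile normalization unc-26 was -0.035 and unc-116 0.029, and with median centring unc-26 was -0.049. With array weights the values were -0.026 for unc-26, 0.043 for unc-57, -0.0020 for cat-1 and 0.042 for unc-30. With gene means over probe sets unc-11 was -0.0060 and unc-116 0.088. Over arrays left out, singly or as the 2 pairs chosen after seeing the data, changes ran from -0.57 to 0.10 for unc-64, -0.13 to 0.39 for ric-19, -0.14 to 0.47 for unc-11, -0.029 to 0.027 for unc-26, -0.38 to 0.072 for unc-57, -0.12 to 0.11 for unc-116, -0.63 to 0.0045 for mec-7, -0.25 to 0.031 for unc-25, -0.038 to 0.26 for tbh-1 and -0.31 to 0.24 for unc-30. Dim signals, mostly below the 40th percentile (62.8 to 80.7) and for cat-2 below it throughout, limit what can be said of eat-4, cat-2, tph-1, unc-3 and aex-3.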
